A study of Mus musculus with 12 samples.

Results

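The loss of Il10 was examined in mouse regulatory T cells (Tregs) by pooling the arrays by their Il10 genotype, and the genes followed are those that lie on neither chromosome 1, which carries Il10, nor chromosome 17, which carries Ebi3. Of 16140 such genes represented on the array, 12328 had at least 1 probe set above the signal filter and were tested, out of 13899 tested in the whole series. All 12 arrays entered the comparison: 6 arrays of Il10-/- Tregs, made up of 3 from Il10 -/- cells (Il10_KO) and 3 from cells lacking both Il10 and Ebi3 (DKO), against 6 arrays of Tregs with intact Il10, made up of 3 from wild type (WT) and 3 from Ebi3 -/- cells (Ebi3_KO). Each genotype had 1 array in each of 3 labelled batches. A batch thus offers 2 pairs whose labels differ only in Il10, Il10_KO with WT and DKO with Ebi3_KO. The cells were sorted by flow cytometry and went into RNA extraction untreated. The strain, age and sex of the mice, the targeted alleles and the origin of the replicates (separate mice or not) are not given in the sources used here, so the p-values measure the spread between these arrays, which may in part be technical.

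Interleukin-10 is a cytokine that Tregs and other leukocytes release to dampen inflammation. It binds a receptor made of Il10ra and Il10rb, which acts through the kinases Jak1 and Tyk2 on the transcription factor Stat3. Socs3, a feedback inhibitor of cytokine receptors, is among the genes that Stat3 switches on. Tregs are defined by the transcription factor Foxp3, and subsets of them take up parts of the programmes of type 1 or type 17 helper T cells, which make interferon gamma or IL-17.

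Signals are MAS5 values, in which the trimmed mean of every array was set to the same level, and log2 differences were taken on log2(signal + 20). The array medians lay between 59.5 and 89.3. The Ebi3 probe set followed the labels, with 1062.5, 2057.3 and 1899.6 in Il10_KO and 15.2, 72.5 and 23.6 in DKO, against 1159, 1727.8 and 1725.9 in WT and 3, 29.4 and 39.5 in Ebi3_KO. The Il10 probe set averaged 1824.8 ± 664 (SD, n = 6) in Il10-/- arrays and 1328 ± 1123 in the others, so this probe set, whose position relative to the deletion is unknown, checks neither the labels nor the loss of the protein. Foxp3 read between 4945.3 and 7955 on all 12 arrays, Cd4 between 2053.2 and 4470.2, and Cd3e, a chain of the T cell receptor complex, between 1611.9 and 4114.7. In batch 3 all 4 genotypes stood apart from batches 1 and 2: Xist, expressed from the inactive X chromosome of females, read 3620 to 6440.8 there against 41.6 to 132.2 in the other batches, and the Y-linked Eif2s3y read 1.9 to 43 against 2984.7 to 4477.6. Lyz2, the lysozyme of macrophages and neutrophils, read 9474.4 to 17798 in batch 3 and 551.3 to 1578.4 in batches 1 and 2. Since every batch holds all 4 genotypes, the model with batch as a factor takes these shifts out of the Il10 comparison, as far as they were alike in the 4 genotypes.

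Away from chromosomes 1 and 17, few genes differed between Il10-/- Tregs and Tregs with Il10. The 5 genes that passed the threshold all rose: Il17re, Tmem176a, Ccl5, Cxcr6 and Arhgap39, by 1.62-fold to 2.66-fold. They were represented by 7 of the 22590 probe sets tested outside the 2 chromosomes (0.031%), at a Benjamini-Hochberg adjusted p of 0.05 or less from limma, adjusted over all 31235 tested probe sets. No probe set fell (0%); without the adjustment 1088 of the 22590 lay higher (4.82%) and 896 lower (3.97%) at a p of 0.05. On chromosome 1 the same test called 14 of 1551 probe sets (0.903%), on chromosome 17 it called 0 of 1174, and among probe sets with no placed gene 3 of 5920 (0.0507%). Fold changes in a bulk sample cannot tell a change in the RNA of each cell from a change in the share of cells that express the gene.

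Il17re, on chromosome 6, encodes a chain of the receptor for the cytokine IL-17C and is counted here among the type 17 genes. Its signal was 488.8, 671.6 and 334.4 in batches 1, 2 and 3 of Il10_KO and 576.1, 1028.3 and 555.6 in DKO, against 187.6, 310 and 140.9 in WT and 180.5, 334.7 and 142.5 in Ebi3_KO. Within each batch both Il10-/- arrays stood above both others, and over all batches the groups touched only at the lowest Il10-/- array and the highest Ebi3_KO array. The log2 difference was 1.41 ± 0.138 (SE; limma adjusted p = 0.0003), a 2.66-fold higher signal, and the differences in the 6 pairs ran from 1.07 to 1.82. Of the 22590 probe sets 546 were higher in 6 of 6 pairs (2.42%), and the pairs are the values that the test itself used. A second probe set of the gene rose by 0.86 (adjusted p = 0.0247), while the remaining one, with signals of only 5 to 56.3 in Il10-/- arrays, gave -0.018 (adjusted p = 0.992). Il17re passed the threshold in each of the 15 fits that left out an array or a batch, with differences from 1.34 to 1.47.

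Tmem176a, also on chromosome 6, encodes a membrane protein known from dendritic cells and from type 17 lymphocytes. Its signals were 1431.2, 1059.1 and 1210.9 in Il10_KO and 1127.9, 1258.3 and 1281.8 in DKO, against 576.5, 511.6 and 651.2 in WT and 753.8, 648.4 and 665.7 in Ebi3_KO. The groups did not overlap. The log2 difference was 0.93 ± 0.114 (SE; limma adjusted p = 0.00259). Of its other probe sets 1 rose by 0.86 (adjusted p = 0.0193) and 1 gave 0.67 without passing (adjusted p = 0.139). Tmem176b, its paralogue and direct neighbour, gave 0.74 ± 0.145 and did not pass (adjusted p = 0.130). Its signals were 2640.5, 1780.1 and 4081 in Il10_KO and 1887.6, 2152.1 and 3334.3 in DKO, against 1146.6, 1060.7 and 1997 in WT and 1649.6, 1639.3 and 1730.3 in Ebi3_KO, higher in 6 of 6 pairs but with overlap between the groups.

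Ccl5, on chromosome 11, encodes a chemokine made by effector and memory T cells and by NK cells. It read 1328.2, 1836.4 and 4830 in Il10_KO and 1331.9, 1739.7 and 4926.8 in DKO, against 804.4, 1428.5 and 3280.9 in WT and 669.9, 1221.1 and 2362.4 in Ebi3_KO. Batch 3 was the highest in every genotype, and the groups separate only within batches. The difference was 0.69 ± 0.107 on the log2 scale (SE; limma adjusted p = 0.0227), with 6 of 6 pairs higher. In the 15 fits with an array or a batch left out the difference stayed between 0.62 and 0.82, but it passed in only 4 of them, those without WT replicate 1, WT replicate 2, Ebi3_KO replicate 2 or Il10_KO replicate 2. The list of CD8 T cell and NK cell markers, of which Ccl5 is one, had a median of 0.53, and the part of such cells in the Ccl5 difference was not tested; their values are given further on.

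Cxcr6, on chromosome 9, encodes the receptor for the chemokine Cxcl16 and marks effector T cells in tissues. Its signals were 957.9, 555.1 and 1174.2 in Il10_KO and 828, 878 and 1693.4 in DKO, against 676.5, 294.6 and 455.5 in WT and 587.6, 263.1 and 616.8 in Ebi3_KO. Only the batch 2 array of Il10_KO reached into the range of the others. The difference was 1.04 ± 0.173 (SE; limma adjusted p = 0.0439), and a second probe set gave 0.97 (adjusted p = 0.221) with no overlap between the groups. Cxcr6 passed in 3 of the 15 fits with an array or a batch left out, those without WT replicate 1, DKO replicate 1 or batch 1, and its difference ran from 0.88 to 1.32 over the 15.

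Arhgap39, on chromosome 15, encodes a GTPase-activating protein. The probe set that passed read 1007.5, 1364.3 and 1144.7 in Il10_KO and 1091.5, 1086.3 and 1136 in DKO, against 664.4, 964.1 and 556 in WT and 662.4, 782.4 and 451.7 in Ebi3_KO, with no overlap. Its difference was 0.76 ± 0.130 (SE; limma adjusted p = 0.0486), at the edge of the threshold, and it passed in 0 of the 15 fits with an array or a batch left out. It is of the kind of probe set whose probes may also match other transcripts. The smallest-p probe sets of Il17re, Socs3, Cnpy2, Polr3k, Dmtf1 and Erdr1 are of such kinds, as is the second called for Tmem176a. The other 2 probe sets of Arhgap39 gave -0.22 (adjusted p = 0.816) and 0.22 (adjusted p = 0.897). No other probe set of the gene passed.

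**Figure D1:**
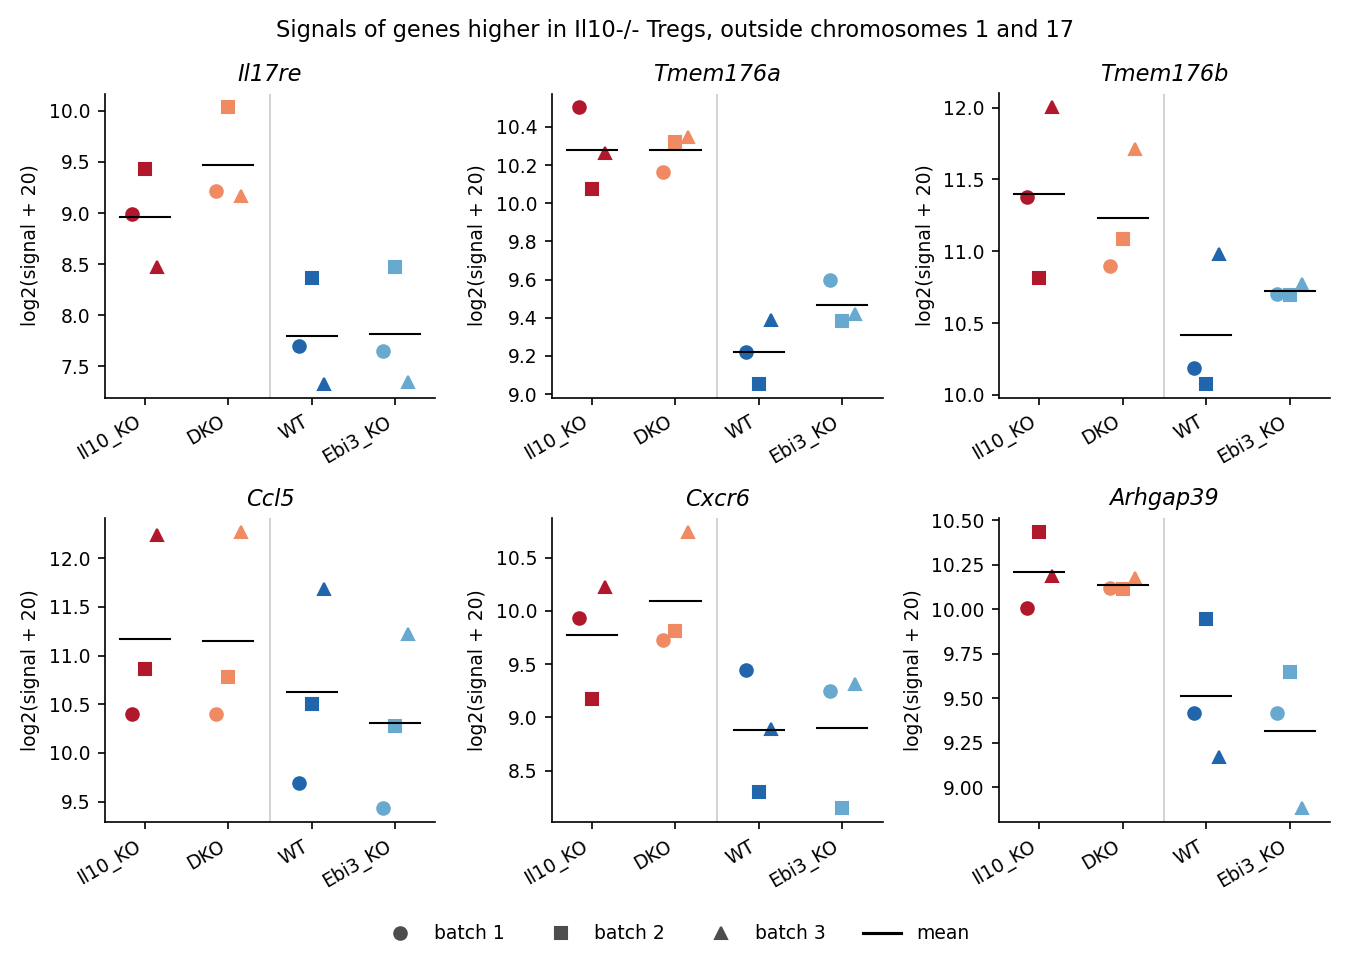
Signal of each of the 12 arrays on a log2(signal + 20) axis for Il17re, Tmem176a, Tmem176b, Ccl5, Cxcr6 and Arhgap39, with Il10_KO and DKO left of WT and Ebi3_KO, batches as symbols and genotype means as lines. Tmem176a and Arhgap39 show no overlap between the 6 Il10-/- arrays and the 6 others, while Ccl5 separates them only within batches, batch 3 being the highest in every genotype.

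The promoter windows of the rising genes are shown because these genes were higher on the same arrays. The windows are RefSeq's on GRCm38.p6, from 250 bases before to 50 bases after an annotated start, and were on hand for Il17re, Tmem176a and Cxcr6, besides Socs3 as the textbook target of Stat3. They were searched on both strands for TTCNNNGAA, the form bound by STAT proteins, and for TGTGGT, bound by RUNX proteins. AGGTCA, the half-site of ROR proteins, was searched as well. Capitals mark a match in Cxcr6 and Socs3. In Tmem176a they mark the 219 bases that its second start's window shares with a window of Tmem176b, which is transcribed from the opposite strand.
Il17re (chr6:113458521-113458820, + strand): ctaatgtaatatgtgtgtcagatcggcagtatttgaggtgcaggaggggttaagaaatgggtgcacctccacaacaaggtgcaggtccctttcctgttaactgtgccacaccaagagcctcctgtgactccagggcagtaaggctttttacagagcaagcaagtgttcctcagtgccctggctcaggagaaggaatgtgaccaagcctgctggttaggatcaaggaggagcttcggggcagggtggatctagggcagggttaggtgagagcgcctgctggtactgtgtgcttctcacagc
Tmem176a (chr6:48841406-48841705, + strand): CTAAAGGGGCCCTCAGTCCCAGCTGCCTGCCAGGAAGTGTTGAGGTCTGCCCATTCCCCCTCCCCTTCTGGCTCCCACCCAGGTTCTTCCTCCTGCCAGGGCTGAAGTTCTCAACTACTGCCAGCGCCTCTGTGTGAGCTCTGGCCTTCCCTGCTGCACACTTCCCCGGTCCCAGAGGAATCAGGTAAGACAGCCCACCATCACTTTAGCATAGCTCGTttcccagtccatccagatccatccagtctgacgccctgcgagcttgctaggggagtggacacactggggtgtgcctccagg
Cxcr6 (chr9:123806227-123806526, + strand): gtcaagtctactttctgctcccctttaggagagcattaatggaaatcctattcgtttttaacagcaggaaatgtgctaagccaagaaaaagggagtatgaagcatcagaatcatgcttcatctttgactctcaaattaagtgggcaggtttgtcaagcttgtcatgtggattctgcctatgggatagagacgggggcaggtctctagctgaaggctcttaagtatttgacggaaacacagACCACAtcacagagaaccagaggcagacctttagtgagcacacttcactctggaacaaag
Socs3 (chr11:117969317-117969616, - strand): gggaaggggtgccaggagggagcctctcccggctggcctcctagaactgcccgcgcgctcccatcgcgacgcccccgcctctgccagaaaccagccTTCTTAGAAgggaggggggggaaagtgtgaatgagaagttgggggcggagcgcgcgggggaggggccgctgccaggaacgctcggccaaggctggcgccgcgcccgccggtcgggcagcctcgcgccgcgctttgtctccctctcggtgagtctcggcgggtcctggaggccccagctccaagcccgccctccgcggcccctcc
The Il17re and Tmem176a windows held none of the searched motifs. AGGTCA had no match in any window shown, and is found in 16.3% of all promoter windows. Cxcr6 held 1 TGTGGT, read on the reverse strand at base 241 of the window, a motif found in 16.8% of all 32851 promoter windows. Socs3 held 1 TTCNNNGAA at base 97, a motif found in 8.30% of the windows. A match is a description of letters and not evidence of binding.

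The genes next to the 5 were also read, as the 10 nearest measured genes around each. None of them passed the threshold. Their median log2 difference was 0.05 around Il17re, 0.04 around Tmem176a, 0.18 around Ccl5, 0.02 around Cxcr6 and -0.08 around Arhgap39. Beside Ccl5 lie other chemokine genes of activated lymphocytes and macrophages, Ccl3 with 0.69 (adjusted p = 0.602) and Ccl4 with 0.41 (adjusted p = 0.529). Beside Cxcr6, Ccr3, a receptor known from eosinophils, gave -0.73 (adjusted p = 0.488).

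Next by p among the higher genes, and not past the threshold, stood Stom (0.66, adjusted p = 0.0840), a membrane scaffold protein, Smpdl3b (1.01, adjusted p = 0.0876), a sphingomyelinase-like enzyme, Nnt (0.71, adjusted p = 0.0879), the transhydrogenase of the inner mitochondrial membrane, Mid1 (2.63, adjusted p = 0.114), a ubiquitin ligase on microtubules, and Tmem176b. At the probe set of smallest p each was higher in 6 of 6 pairs, which the choice by p favours. Mid1 had by far the widest spread, at 9956.1, 1631.2 and 1958.9 in Il10_KO and 3283.4, 5874.6 and 424.9 in DKO, against 455.9, 969.8 and 541.7 in WT and 560.7, 104.3 and 240.7 in Ebi3_KO. Its difference of 2.63 ± 0.50 was larger than that of any gene that passed, and the groups overlapped at the DKO array of batch 3. Its other tested probe set gave 0.53 (adjusted p = 0.655). At its probe set of smallest p Nnt read 1343.2, 958.3 and 1262.7 in Il10_KO and 1311.2, 1139.8 and 1179 in DKO, against 883.6, 455.9 and 587.8 in WT and 1192.1, 697.7 and 716.3 in Ebi3_KO, so that the batch 1 array of Ebi3_KO lay inside the Il10-/- range. Its brighter probe set gave 0.54 (adjusted p = 0.497) with 4 of 6 pairs higher, at 1.09 between Il10_KO and WT and -0.0076 between DKO and Ebi3_KO.

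Among the genes with the smallest p on the lower side none passed. Of these 10 genes 8 were lower in 6 of 6 pairs, as were 576 of the 22590 probe sets (2.55%). The genes were picked by p from the same pairs, so the 8 are no further support. Cnpy2, a protein of the endoplasmic reticulum, gave -0.51 (adjusted p = 0.0893), with signals of 4150.1 to 6492.1 (median 4798) in Il10-/- arrays and 4994.6 to 8614.3 (median 7525) in the others. Akap13, an anchor for protein kinase A, gave -0.53 (adjusted p = 0.139), and Polr3k, a subunit of RNA polymerase III, gave -1.61 (adjusted p = 0.152). Dmtf1 (-0.85), Sptbn1 (-0.40), Prkag2 (-0.61), Phtf2 (-0.49), Zfp958 (-0.63), Itm2a (-0.52) and Erdr1 (-0.69) had adjusted p-values from 0.209 to 0.235. In several of these genes the probe sets disagreed. The other 3 tested probe sets of Polr3k gave -0.13 to -0.02, and 5 of the other 6 of Akap13 were above 0. Phtf2 was the only one of these 10 whose groups did not overlap, at 1206.3 to 1577.7 in Il10-/- arrays and 1587.4 to 2115.6 in the others.

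**Figure D2:**
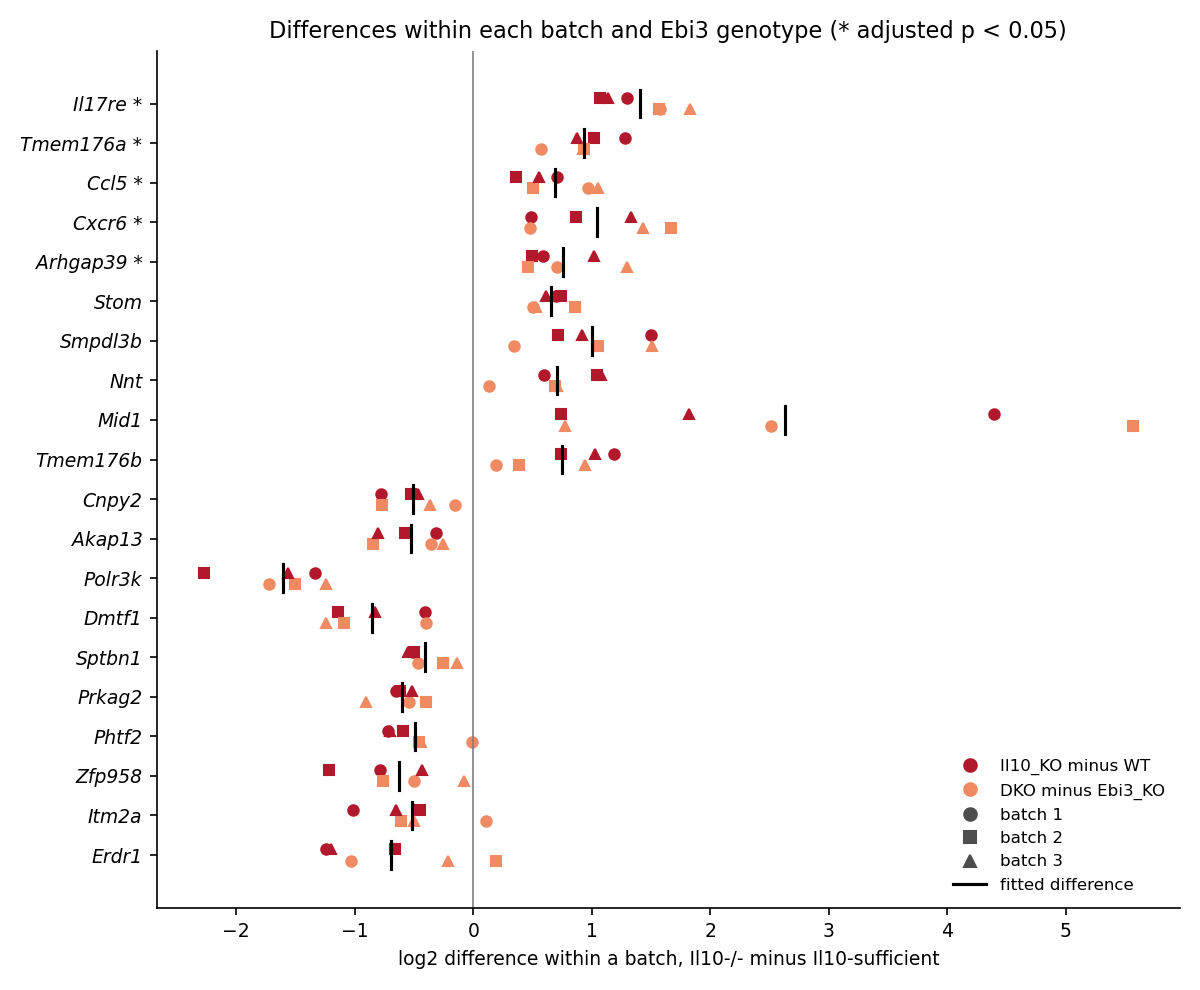
Log2 differences of Il10_KO minus WT and of DKO minus Ebi3_KO within each batch for the 10 genes of smallest p in each direction, with the fitted difference as a black bar; an asterisk marks adjusted p below 0.05. All 6 pairs lie above 0 in the 10 higher genes, which the choice by p favours. Mid1 spreads the most, and Itm2a and Erdr1 each have 1 pair on the other side of 0.

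Separation of all 6 Il10-/- arrays from all 6 others was rare in both directions, in 25 probe sets above (0.111%) and 18 below (0.0797%). Among genes named here for other reasons it was seen in Igfbp4 and Runx3. Igfbp4, a binding protein for insulin-like growth factors listed with the genes of resting T cells, read 5026.1, 5102.7 and 7228.8 in Il10_KO and 6567.1, 5928.9 and 5653.9 in DKO, against 4739.3, 2295.9 and 741.1 in WT and 5003, 3693.9 and 1060.9 in Ebi3_KO. The 6 Il10-/- arrays were close together and the spread lay in the others, with batch 3 lowest. The difference of 1.32 ± 0.311 did not pass (SE; limma adjusted p = 0.247). These values are of 1 probe set whose probes may also match other transcripts, and the brightest probe set of Igfbp4 gave 0.41. Runx3, a regulator of cytotoxic and type 1 T cells, read 555.3 to 841.6 (median 607.2) in Il10-/- arrays and 365.1 to 520.6 (median 411.9) in the others, a difference of 0.58 that did not pass (adjusted p = 0.262).

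Differences were then read separately at each Ebi3 genotype, since the average describes a gene only if both pairs of groups move alike. Il17re differed by 1.17 between Il10_KO and WT (limma adjusted p = 0.0458) and by 1.65 between DKO and Ebi3_KO (adjusted p = 0.00291). Tmem176a differed by 1.06 (adjusted p = 0.0458) and 0.81 (adjusted p = 0.328) in the same order of contrasts, Ccl5 by 0.54 and 0.84, Cxcr6 by 0.90 and 1.19, and Arhgap39 by 0.70 and 0.82. Taken alone, Il10_KO against WT called 3 probe sets outside chromosomes 1 and 17 (0.0133%), of Il17re, Tmem176a and Socs3. DKO against Ebi3_KO called 1 (0.00443%), of Il17re. The interaction, which tests whether the Il10 difference depends on Ebi3, called 0 of 22590 probe sets (0%), with 836 at an unadjusted p of 0.05 (3.7%). For Il17re its unadjusted p in limma was 0.077, and for the other 4 genes it lay between 0.171 and 0.657.

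None of the named genes passed the interaction test. The smallest p was that of S100a8, a neutrophil protein, which differed by -0.25 between Il10_KO and WT and by 1.51 between DKO and Ebi3_KO (limma unadjusted p = 0.000296, adjusted p = 1.00). Next came Tgm2, a transglutaminase, with 1.30 and 0.13 in the same order (unadjusted p = 0.00177, adjusted p = 1.00), and S100a9, the partner of S100a8, with -0.055 and 1.34 (unadjusted p = 0.00291, adjusted p = 1.00). They were followed by the neutrophil enzyme Mpo with -1.07 and 0.25 (unadjusted p = 0.00394, adjusted p = 1.00) and the migration receptor Gpr183 with 0.89 and 0.13 (unadjusted p = 0.00672, adjusted p = 1.00). Further down stood Gzmb, with -1.09 and 0.37 (unadjusted p = 0.0258, adjusted p = 1.00), Erdr1, with -1.03 and -0.35 (unadjusted p = 0.0269, adjusted p = 1.00), and Socs3, with 0.79 and 0.32 (unadjusted p = 0.0290, adjusted p = 1.00). This order takes for each gene the probe set of smallest p in the pooled test. Another Socs3 probe set differed by 1.32 and 0.23 (limma interaction, unadjusted p = 0.00136) and did not pass either.

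**Figure D3:**
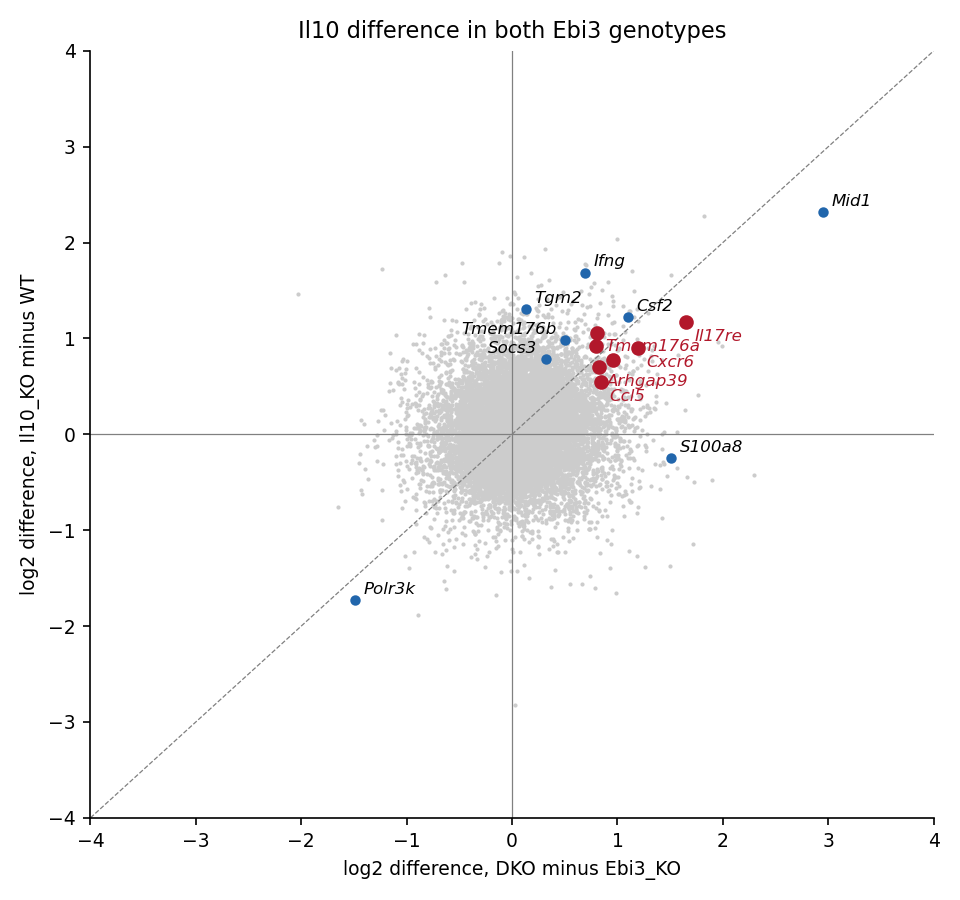
Log2 difference of DKO minus Ebi3_KO (horizontal axis) against Il10_KO minus WT (vertical axis) for every probe set tested outside chromosomes 1 and 17 (grey), with the 7 called probe sets in red, chosen named genes in blue and the line of equal differences dashed. The called probe sets lie near the line and above 0 on both axes, while Tgm2 lies near 0 on the horizontal axis and S100a8 below 0 on the vertical one. The called probe sets were chosen by the average of the 2 differences, which in part fixes where they lie. The 2 axes share no array.

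In the receptor and signalling pathway of IL-10 itself 0 of 21 tested members passed the threshold of the pooled comparison. Of these 14 lay above 0 and 7 below, with a median of 0.10, against a median of 0.0080 over all 12328 genes, of which 51.7% lay above 0. List medians and the counts above and below 0 use the brightest probe set of a gene, and single genes are given by the probe set of smallest p. The 2 can differ, and for some genes the brightest is given too. The receptor chains gave 0.14 for Il10ra (adjusted p = 0.715) and -0.14 for Il10rb (adjusted p = 0.657). Stat3 gave 0.19 (adjusted p = 0.807) with a sign that turned when batch 2 was left out (-0.011). Its brightest probe set gave 0.057. Jak1 gave -0.76 (adjusted p = 0.441) but 0.078 by its brightest probe set. Ptpn2, a phosphatase that turns off Jak signalling, gave -0.29 (adjusted p = 0.349) but 0.45 by its brightest probe set, so neither gene has a settled direction.

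Socs3 stood highest in that pathway without passing in the pooled comparison. It read 14414, 12359 and 6153.8 in Il10_KO and 13936, 9572.3 and 5706.4 in DKO, against 7243.4, 6872.7 and 4283.9 in WT and 11478, 7715.6 and 4397.2 in Ebi3_KO. In every batch each Il10-/- array stood above its partner, while over batches the groups overlapped widely and batch 3 was lowest in every genotype. The difference was 0.55 ± 0.109 (SE; limma adjusted p = 0.134), and the other 2 probe sets gave 0.73 and 0.77 (adjusted p = 0.242 and 0.301). The last of these was called in Il10_KO against WT taken alone, at 1.32 (limma adjusted p = 0.0370). Between DKO and Ebi3_KO it gave 0.23 (adjusted p = 0.950).

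Cytokines of effector T cells lay above 0 in 7 of 7 tested members, with a median of 0.37, and none passed. Ifng, the type 1 cytokine, read 2512.8, 3589.1 and 2048 in Il10_KO and 1672.1, 4640.4 and 2631.4 in DKO, against 307.3, 1666.6 and 1009.4 in WT and 1895.6, 1869.5 and 1351.2 in Ebi3_KO. Its difference was 1.19 ± 0.270 (SE; limma adjusted p = 0.222), with the DKO array of batch 1 below its partner. Csf2, which encodes GM-CSF, was dim, at 80.3, 68.2 and 117.9 in Il10_KO and 43.4, 155.8 and 97.2 in DKO, against 8.8, 34.1 and 41.7 in WT and 13.6, 44.8 and 41 in Ebi3_KO. It was higher in 6 of 6 pairs by 1.16 (adjusted p = 0.139). Il4 gave 0.61 (adjusted p = 0.491) and Il2 0.37 (adjusted p = 0.654).

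Of 10 tested type 17 genes 2 rose, Il17re and Tmem176a, and 7 lay above 0, with a median of 0.28. Over all 12328 genes 5 were called, from 0.031% of the probe sets, and since the list was drawn up with earlier results of both genes known, the count is no independent evidence about type 17 genes. The next were Tmem176b and Rora, a nuclear receptor expressed in type 17 cells, at 0.34 (adjusted p = 0.435). Of 14 type 1 genes 1 rose, Ccl5, and 11 lay above 0 with a median of 0.26. Below the threshold were Runx3 and Tbx21, the type 1 master regulator, at 0.52 (adjusted p = 0.414). Type 2 genes had 0 of 6 past the threshold and a median of 0.12, with Gata3 at 0.14 (adjusted p = 0.666).

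Genes of Treg identity had 0 of 16 past the threshold, with 8 above and 8 below 0 and a median of -0.0026. Foxp3 gave -0.13 (adjusted p = 0.720), Il2ra, a chain of the IL-2 receptor, 0.06 (adjusted p = 0.934), Ikzf4 -0.21 (adjusted p = 0.597) and Nrp1 -0.16 (adjusted p = 0.660), which by its brightest probe set was 0.11. Suppressive molecules had 0 of 14 past the threshold and a median of 0.05, with the granule proteins Gzma at 0.77 (adjusted p = 0.368), Prf1 at 0.53 (adjusted p = 0.384) and Gzmb at -0.36 (adjusted p = 0.780). Of 18 effector Treg genes 1 rose, Cxcr6, and the median was 0.03. Over all 12328 genes 5 rose, and this list too was drawn up with earlier results known. Id2, a regulator of effector lymphocytes, gave 0.73 (adjusted p = 0.260) and 0.54 by its brightest probe set. Maf, a regulator of Il10 in T cells, gave 0.30 (adjusted p = 0.488) but -0.12 by its brightest probe set. The resting T cell genes had a median of -0.04 over 13 members, with Lef1 at -0.30 (adjusted p = 0.477) and 0.0058 by its brightest probe set.

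Among chemokine and homing receptors 1 of 22 rose, again Cxcr6, while over all 12328 genes 5 rose. The median was 0.10, with Gpr183 at 0.51 (adjusted p = 0.372). Proliferation genes lay mostly below 0, in 29 of 41, with a median of -0.12 and 0 past the threshold. Ccnb2, the mitotic cyclin, gave -0.51 (adjusted p = 0.525) and Birc5 -0.45 (adjusted p = 0.564), while Aurka gave 0.35 (adjusted p = 0.531). Immediate-early genes of T cell activation lay above 0 in 19 of 25, with a median of 0.25, and heat shock and stress genes in 11 of 13, with a median of 0.27; 0 members of either list passed. The stress genes Gadd45a, Gadd45b and Gadd45g gave 0.63, 0.90 and 0.47, with adjusted p-values between 0.264 and 0.301, and the brightest probe set of Gadd45b gave 0.52. In 2 of the 6 pairs the median of the immediate-early list was below 0, and its pair medians ran from -0.39 to 1.64. For heat shock and stress genes the pair medians ran from -0.21 to 0.96, above 0 in 4 of the 6 pairs. Those of the proliferation list ran from -0.44 to 0.79, above 0 in 1 pair.

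The interferon response had 0 of 32 past the threshold and a median of -0.03, apoptosis and TNF family genes 0 of 15 and -0.03, glycolysis and hypoxia genes 0 of 19 and 0.04, and cholesterol synthesis 0 of 16 and 0.05. The smallest p in the apoptosis list was that of Xiap, at -0.41 (limma adjusted p = 0.305) and lower in all 6 pairs. In the other lists it was that of Irf1 (0.27, adjusted p = 0.504), Aldoa (0.27, adjusted p = 0.497) and Sqle (0.28, adjusted p = 0.472). The brightest probe set of Aldoa gave 0.12. Further members of small p, picked for larger differences, were Pmaip1, an inducer of apoptosis, at 1.09 (adjusted p = 0.337), Egln3, a hydroxylase of the hypoxia response, at 0.65 (adjusted p = 0.549), and Sc5d, an enzyme of cholesterol synthesis, at 0.64 (adjusted p = 0.550). The brightest probe sets of Egln3 and Sc5d gave 0.062 and -0.016.

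**Figure D4:**
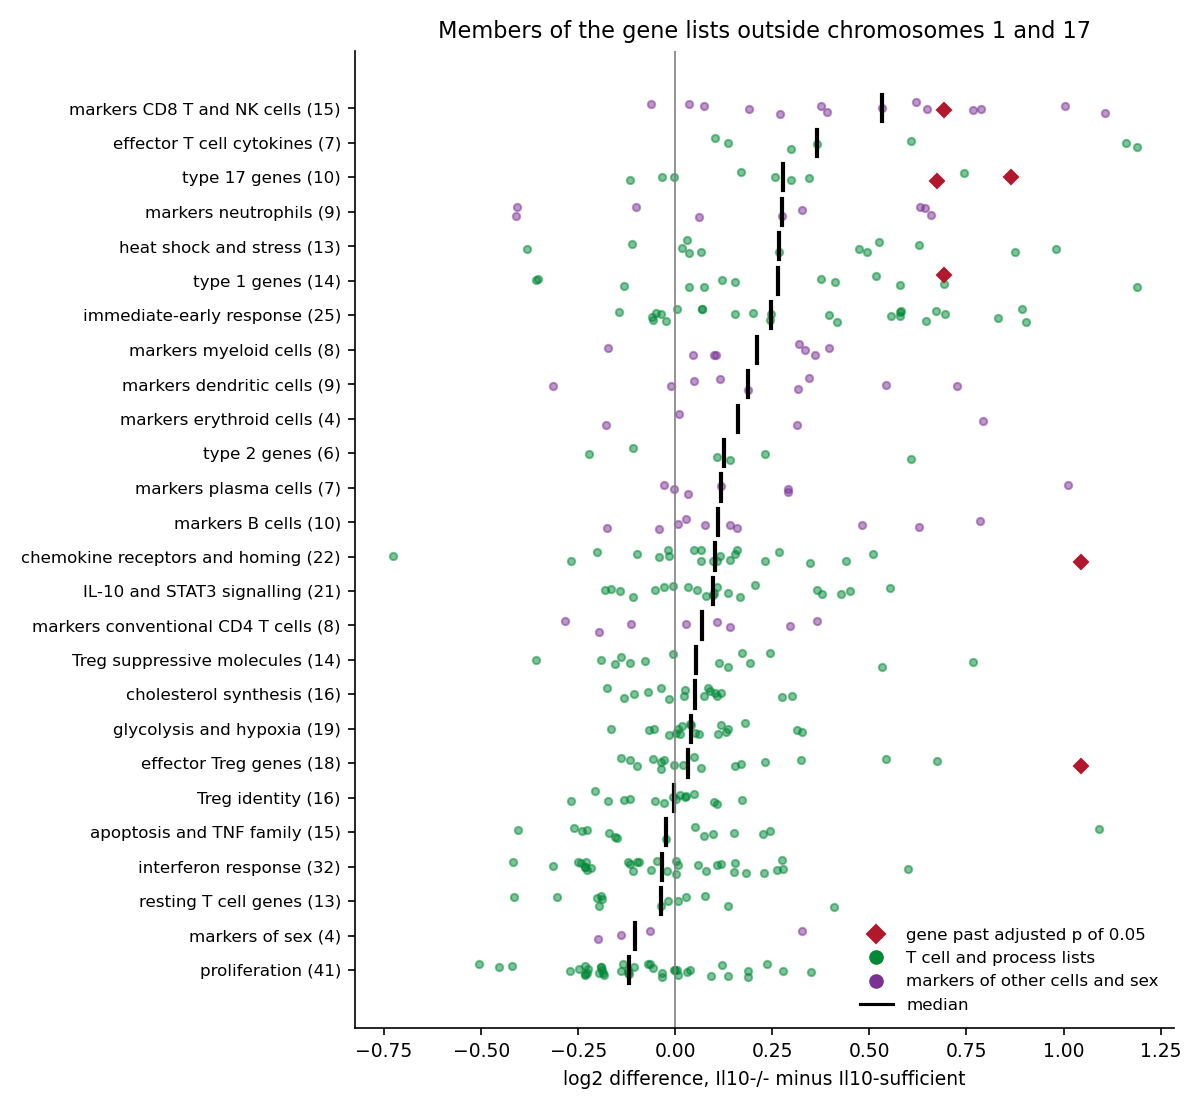
Log2 difference, Il10-/- minus Il10-sufficient, of every tested member of 26 gene lists outside chromosomes 1 and 17, by its brightest probe set, with the median as a black bar and the number of members in parentheses. Genes with a probe set past the adjusted p of 0.05 are red diamonds; the list for CD8 T cells and NK cells has the highest median (0.53) and proliferation the lowest (-0.12).

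Markers of other cells that a sort could carry along were read in the same way. The list for CD8 T cells and NK cells, with 15 tested markers, had the highest median of all lists, 0.53, with 14 above 0, and their median was above 0 in each of the 6 pairs (0.18 to 0.91). Of these 1 rose, Ccl5, while over all 12328 genes 5 rose. At an unadjusted p of 0.05 in limma 9 of the markers were higher, as were 5.22% of all genes. The NK receptors Klrk1, Klrc1 and Klrd1 gave 1.00 (adjusted p = 0.212), 1.11 (adjusted p = 0.260) and 0.62 (adjusted p = 0.261), each in 6 of 6 pairs. Several of these genes are also expressed by activated effector T cells. Klre1, of the same receptor family, gave 0.79 (adjusted p = 0.441). Lower in the list stood Cd8a with 0.32 (adjusted p = 0.716), Ncr1, another receptor of NK cells, with 0.19 (adjusted p = 0.900), the transcription factor Eomes with 0.059 (adjusted p = 0.957) and Cd8b1 with -0.06 (adjusted p = 0.934).

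The summed signal of the 15 genes was 5323.1, 5324.1 and 21736 in Il10_KO and 4793.1, 6624.5 and 22439 in DKO, against 3925.1, 4335 and 14924 in WT and 3845.6, 3857.4 and 11102 in Ebi3_KO. No marker was at 0 on any array. The sum was highest in batch 3 for each genotype, and in every batch both Il10-/- arrays stood above both others. It includes the called Ccl5 itself, and bright genes weigh most in it. In batch 3 Ccl5 and Tyrobp read 4830 and 6787.2 in Il10_KO, against 3280.9 and 3380.9 in WT. Tyrobp followed the batches as the myeloid markers did, at 382.5 to 670.2 in batch 1 and 420.5 to 1269.9 in batch 2. The myeloid marker Csf1r read 14906 to 16456 in the Il10-/- arrays of batch 3 and 6258.5 to 9177.1 in the others. The part of myeloid cells in this sum was not tested. The part of CD8 T cells and NK cells in the differences of Ccl5, Cxcr6, Runx3 and the type 1 genes was not tested.

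Markers of the other cell types had medians between 0.07 and 0.28, and none of their members passed: conventional CD4 T cells 0.07 (5 of 8 above 0), B cells 0.11 (8 of 10), plasma cells 0.12 (5 of 7), erythroid cells 0.16 (3 of 4), dendritic cells 0.19 (7 of 9), myeloid cells 0.21 (7 of 8) and neutrophils 0.28 (6 of 9). In batch 3 the summed signal of the 8 myeloid markers was 66773 in Il10_KO and 62011 in DKO, against 39905 in WT and 44890 in Ebi3_KO. In batches 1 and 2 it was 17424 to 25495 in Il10-/- arrays and 18982 to 24234 in the others, with no separation. Jchain, the joining chain of secreted antibodies, gave 1.01 (adjusted p = 0.301), and Cd74, a chaperone of antigen presentation, 0.54 (adjusted p = 0.307). The 4 tested sex-linked genes had a median of -0.10, and the brightest Xist probe set gave 0.33 (adjusted p = 0.660). Their part in the called differences was not tested; without batch 3 the test called 2 probe sets outside chromosomes 1 and 17, those of Il17re, which rose, and Polr3k, which fell (adjusted p = 0.0203).

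**Figure D5:**
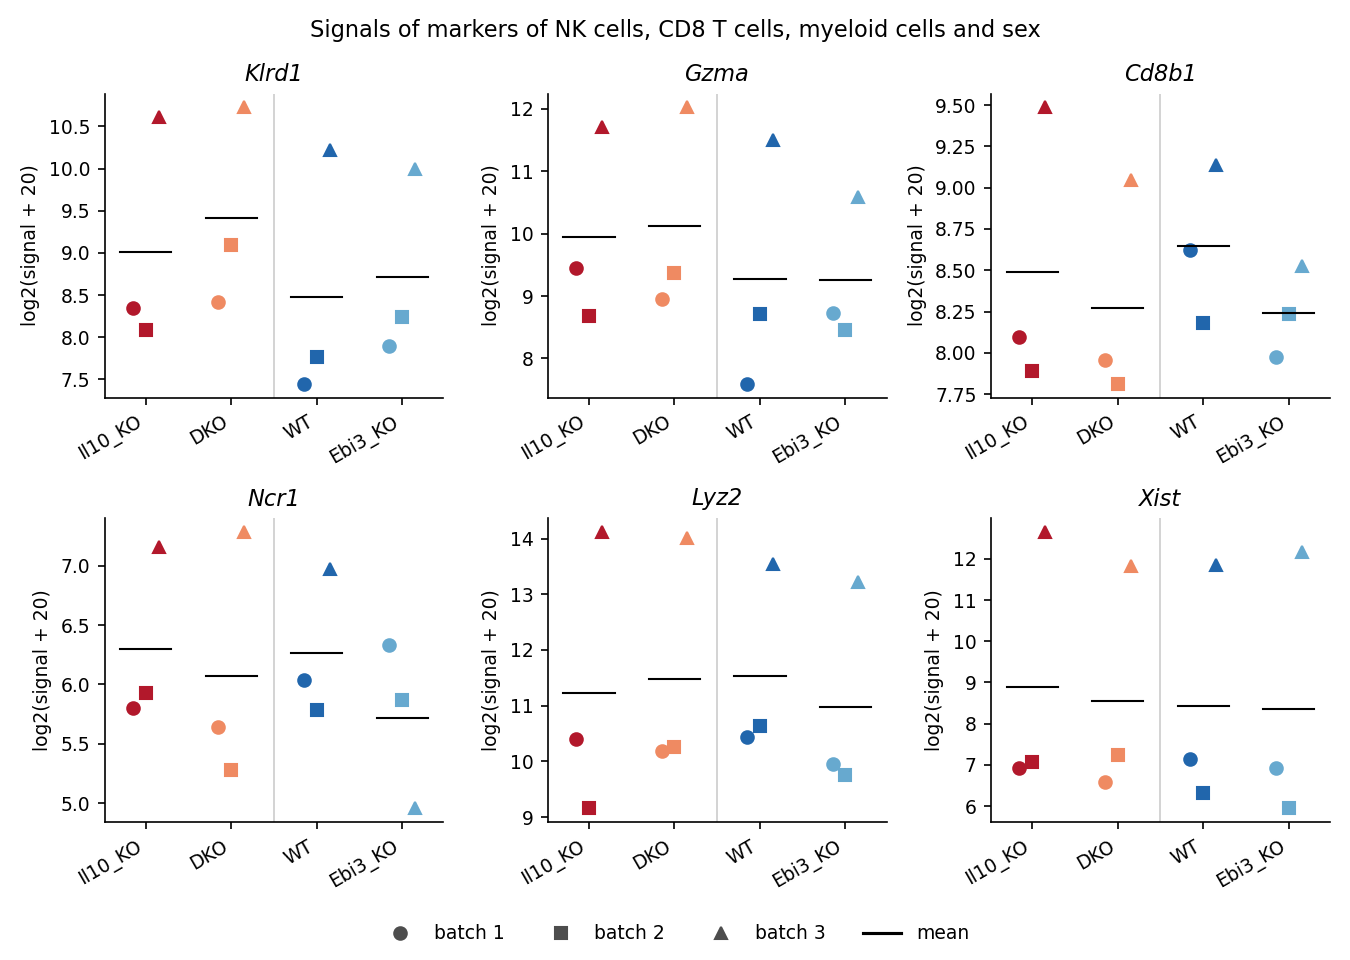
Signal of each array on a log2(signal + 20) axis for the NK cell genes Klrd1, Gzma and Ncr1, the CD8 chain Cd8b1, the myeloid gene Lyz2 and the female-specific Xist, with Il10_KO and DKO left of WT and Ebi3_KO, batches as symbols and genotype means as lines. Batch 3 is far above the others in every genotype for Lyz2 and Xist, and over the batches the Il10-/- arrays and the others overlap in all 6 genes.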

How the data were processed

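RNA of 12 Treg samples was measured on Affymetrix mouse arrays. Per the submitters' processing notes the authors used MAS5 and Partek 6.4; the settings are not given in the sources used here. The deposited table holds natural log values of MAS5 signal plus 20, as the numbers themselves show: with 20 taken off after exponentiation, signals are multiples of 0.1 and the trimmed mean is alike on all arrays. They were converted to log2 with no further normalization. Log2(signal plus a constant) had been assumed, so the test was unchanged.

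The table held 45101 probe sets, of which 34945 had a single gene symbol and 34741 were matched to GRCm38.p6 by gene identifier. Probe sets at or above the 40th percentile of the array on 3 or more arrays were tested. The model had Il10 genotype, Ebi3 genotype and batch, with 7 residual degrees of freedom (limma 3.58.1 in R 4.3.3, lmFit and eBayes with trend). The interaction used 6. Tests were two-sided, with Benjamini-Hochberg adjustment over all tested probe sets. The procedure was tested on simulated data, with independent noise in each probe set and added effects only in brighter probe sets. Such data do not cover dim genes or shifts shared by many genes. Precision is limited by the number of arrays.

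After removal of genotype means, arrays of the same number correlated at 0.325 to 0.664 over 18 pairs, against -0.702 to -0.0204 between numbers, and the replicate number equals the labelled batch. Removal of the means by itself pulls the correlations between numbers down, so their negative range is partly built in. Genes named are those past the threshold, filled to 10 in each direction by smallest p, each list's members that pass and up to 4 of smallest p, and a fixed set of IL-10, Treg and effector genes. Of that set Ctla4, on chromosome 1, is not described and Ddx3y had no probe set with a single symbol. Igfbp4 and Runx3 were singled out after their values were seen. The members, lists and tests were chosen with earlier results of these data known. Alternatives left out the batch term, took it as a random block, fitted 4 genotype means, changed the filter, the constant and the normalization, used robust eBayes, or left out each array and each batch.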

Additional observations from a re-analysis of the deposited data

Results flagged for a closer look

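Over the 31 genes of smallest p or of fixed interest, 62 groups of 6 arrays were searched for a single array far from the rest, and 3 were found; chance alone gives about 1 in 20 groups. Ifng read 307.3 in WT replicate 1, below the 1009.4 to 1895.6 of the other arrays with Il10. Cnpy2 read 4994.6 in Ebi3_KO replicate 1, below the 7145 to 8614.3 of the same group. Sptbn1, a spectrin chain, read 3479 in DKO replicate 3, above the 2593 to 2803.8 of the other Il10-/- arrays.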

How the results depend on the processing

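Outside chromosomes 1 and 17 the count of called probe sets was 7. With no replicate block it was 0 by limma (535 at an unadjusted p of 0.05), with Il17re at an adjusted p of 0.436 and Tmem176a at 0.0656. With batch as a random replicate block it was 4, of Il17re and Tmem176a. Genotype means, other filters, a constant of 64, quantile normalization and robust eBayes gave 5 to 7. With arrays or batches left out it was 1 to 15. It was 15 without batch 1 (3 of the 7 among them), 1 without batch 2 (Il17re) and 2 without batch 3. Single arrays moved it too: 2 without Il10_KO replicate 1, DKO replicate 3 or WT replicate 3, and 3 without Il10_KO replicate 3, DKO replicate 2, WT replicate 2 or Ebi3_KO replicate 3. Tmem176a passed in 13 of 15 such fits, failing without batch 2 or batch 3. The interaction called 0 in all fits run (274 to 1230 at an unadjusted p of 0.05). Over 31 genes 709 alternative values were computed: 643 kept direction and call, 53 lost the call, 8 gained it and 5 changed sign. Only the 5 called genes can lose a call, so all 53 are theirs. Most of the 643 are of genes that did not pass in the main fit either. In the 8 fits that kept all arrays, Il17re and Tmem176a passed in 7 each, Ccl5 in 6, Cxcr6 in 4 and Arhgap39 in 3. The sign changed for Il2ra, at -0.04 without WT replicate 3, -0.05 without Il10_KO replicate 3, -0.0065 without Ebi3_KO replicate 3 and -0.23 without batch 3, and for Stat3, at -0.011 without batch 2; over all such fits they ran from -0.23 to 0.22 and from -0.011 to 0.37. The causes were not tested. With batch left out of the model, its shifts enter the residual spread. Low signals such as those of Csf2 and Klrk1 lie near background, where the added constant shrinks differences.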
